A study of Mus musculus with 28 samples.

Results

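The 10 genes described here are Egr1, Egr2, Egr3, Fos, Fosb, Fosl2, Jun, Junb, Nr4a1 and Ier3, a set of immediate early genes measured in mouse CD4+ T cells before and after anti-CD3. They were chosen by name, with earlier results of these data known. Each is represented by its probe set with the highest mean log2 intensity over 26 arrays. Only probe sets that the platform annotation gives a single symbol were used. They are 10 of 17097 genes tested, and 13 of 45141 probe sets carry their names.

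The samples were total RNA from splenic CD4+ T cells of 12-week-old female mice, read on Affymetrix HT MG-430 PM microarrays. The strains were C57BL/6, B6.Sle1b, which carries the Sle1b lupus susceptibility interval on the C57BL/6 background, and Sle1b.BACSlamf6-H1, which carries the interval and a bacterial artificial chromosome with Slamf6-H1. All groups thus share the C57BL/6 background, and both other strains share the Sle1b interval. The cells were unstimulated, or activated on plate-bound anti-CD3 at 0.1 µg/ml for 4 h or 24 h. The 9 groups hold 3 arrays each, except C57BL/6 at 24 h with 2 arrays, beside 2 further arrays of that group labelled technical and kept out of the tests. The labels do not say how long the unstimulated cells were cultured, which promoter or how many lines the BAC strain rests on, or whether each sample is a separate animal. The p-values therefore rest on sample-to-sample spread, part of which may be technical.

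Immediate early genes are transcribed within minutes of a signal, without new protein synthesis, and their transcripts are mostly short-lived. In T cells the antigen receptor reaches them through calcium and the ERK and JNK kinases, which act on promoters through serum response factor with its ETS partners, CREB and MEF2. The EGR zinc-finger factors and the orphan nuclear receptor Nr4a1 (Nur77) are used as reporters of receptor signalling, whereas FOS and JUN proteins pair as AP-1, which binds together with NFAT at cytokine genes. Fos, Jun and Egr1 are also induced by handling and dissociation of tissue, so their level in freshly isolated cells need not be a resting level.

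Promoter sequence in the RefSeq table (assembly GRCm38.p6) was matched for 8 of the 10 genes, that is all but Egr1 and Egr3, and the stretches before the listed start are shown because these genes parted into rising and falling ones. Capitals mark the core of the cyclic AMP response element (TGACG on either strand), the AP-1 and CREB octamer TGACNTCA, the EGR site GCGNGGGCG on either strand, and the CArG box bound by serum response factor. For Fos, Fosl2, Jun and Junb the 150 bases before the start are printed. For Egr2, Fosb and Nr4a1, which have a further start upstream, a stretch of 30 bases around matches is printed. Ier3 held none of the marked matches in the 250 bases searched and is not printed.
Egr2 (chr10:67537793-67537822, + strand): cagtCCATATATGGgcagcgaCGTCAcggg
Nr4a1 (chr15:101266784-101266813, + strand): ggCGCCCCCGCccctctccatgCGTCAcgg
Fos (chr12:85473740-85473889, + strand): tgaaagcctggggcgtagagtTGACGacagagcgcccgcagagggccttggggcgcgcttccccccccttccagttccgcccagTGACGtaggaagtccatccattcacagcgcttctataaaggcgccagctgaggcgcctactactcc
Fosb (chr7:19310081-19310110, - strand): gcgggTGACGcaagcGCGGGGGCGggtccc
Fosl2 (chr5:32136322-32136471, + strand): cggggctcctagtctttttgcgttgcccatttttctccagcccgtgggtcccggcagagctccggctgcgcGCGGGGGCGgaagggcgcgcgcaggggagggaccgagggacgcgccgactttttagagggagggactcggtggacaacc
Jun (chr4:95052223-95052372, - strand): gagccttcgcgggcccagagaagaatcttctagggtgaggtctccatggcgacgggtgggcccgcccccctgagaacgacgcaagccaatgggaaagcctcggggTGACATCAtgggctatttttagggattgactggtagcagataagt
Junb (chr8:84978749-84978898, - strand): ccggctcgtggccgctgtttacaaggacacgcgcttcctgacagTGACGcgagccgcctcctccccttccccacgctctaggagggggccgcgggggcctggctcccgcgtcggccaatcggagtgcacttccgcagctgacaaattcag

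Within the 250 bases before the start, TGACG stood in 5 of the 8 promoters (Egr2, Fos, Fosb, Junb and Nr4a1) and in 17.8% of all 32851 promoter windows of that length. The octamer TGACNTCA stood in Jun alone of the 8 and in 7.49% of all windows, and the AP-1 site TGANTCA in none of the 8 and in 6.75%. The EGR site stood in Fosb, Fosl2 and Nr4a1 and in 4.70% of windows, the CArG box in Egr2 and in 1.47%, and TATAAA in Fos and in 12.4%. Egr2 has 5 listed starts, and the one used is the most upstream of 3 that lie within 100 bases of another. Its CArG box lay 72 to 63 bases before that start. Nr4a1 held 4 matches to TGACG in its window. The letters were shared by genes that rose and genes that fell: Egr2 and Fosb both hold TGACG. Such a match is a description of the sequence and was not measured as a site in these cells.

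The arrays' 75th percentile of intensity, called array brightness here, ranged from 34.2 to 53.3. Background, the 95th percentile of 23 non-specific control probe sets, lay between 2.76 and 3.21 on the log2 scale. All 9 measured T cell markers, the Cd3 chains and Cd4 among them, were above background in every group, with a mean over the list of 9.23 to 9.67. Of 13 measured B cell markers, 10 or 11 were above background in every group, Cd79b and Ms4a1 among them, with Pax5 and Cr2 at background. That list averaged 5.82 to 5.84 in C57BL/6 and 5.31 to 5.63 in the other strains. The neutrophil list, such as S100a8, averaged 3.45 to 3.92 in C57BL/6 and 4.22 to 4.86 in the other strains. In bulk RNA a change in the number of cells that hold a transcript and a change per cell cannot be told apart.

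On average over the 3 strains, 4 of the 10 genes were higher at 4 h than in unstimulated cells (Egr1, Egr2, Jun and Ier3), 4 were lower (Fos, Fosb, Fosl2 and Junb), and Nr4a1 and Egr3 did not pass. The test is limma's moderated test with Benjamini-Hochberg adjustment over all genes, and a gene was called at an adjusted p under 0.05; 18.2% of all genes were called in that comparison, 8.15% as higher and 10.1% as lower. At 24 h, 3 genes were above the unstimulated level (Egr1, Jun and Ier3) and 5 below it (Fos, Fosb, Fosl2, Junb and Nr4a1), where 40.4% of all genes were called, 22.9% as higher and 17.4% as lower. From 4 h to 24 h, 7 of the 10 fell and none rose, where 34.6% of all genes were called, 20.5% as higher and 14.1% as lower. The genes were picked as known responders to activation, with earlier results of these data in view, so a comparison of sizes with all genes is a description. The median size of the difference, whatever its direction, was 0.90 over the 10 genes against 0.11 over all genes at 4 h and 1.51 against 0.18 at 24 h, in log2 units.

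**Figure D1:**
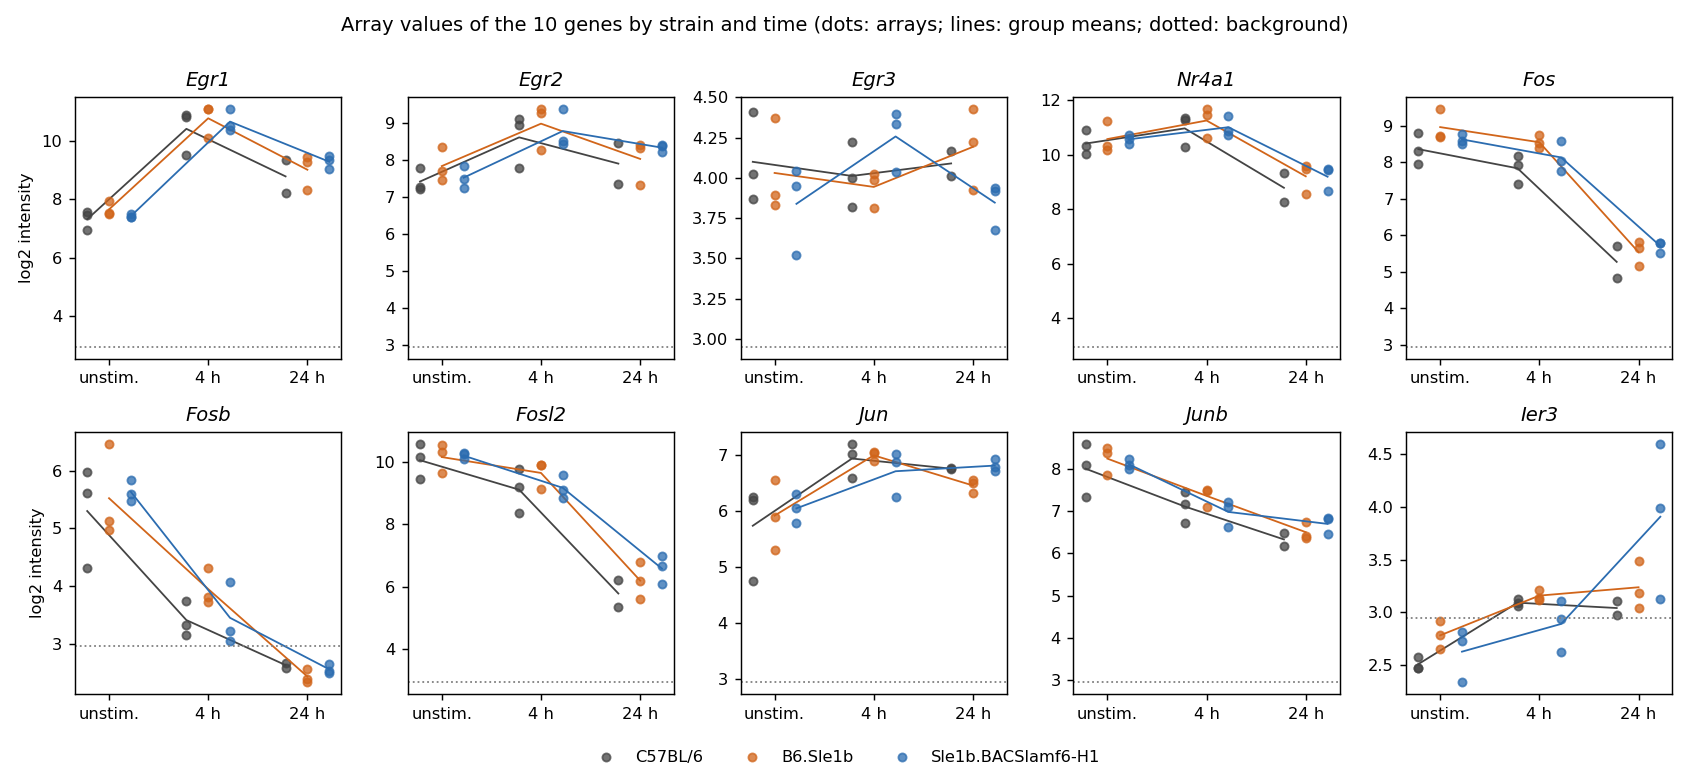
Log2 intensity of the 10 genes on each of the 26 arrays (dots), by time on the horizontal axis and strain by colour, with lines through group means and the mean array background dotted; each panel has its own scale. Among the times sampled Egr1 is highest at 4 h in all strains, and Fos, Fosl2 and Nr4a1 drop at 24 h. Fosb ends under the background line and Egr3 stays between 3.52 and 4.43.

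Egr1, a zinc-finger activator that is among the first genes read after receptor signalling, showed the largest rise of the set. Unstimulated arrays read 7.55, 6.94 and 7.46 in C57BL/6, 7.48, 7.96 and 7.52 for B6.Sle1b, and 7.50, 7.38 and 7.39 for Sle1b.BACSlamf6-H1, on the log2 scale. At 4 h they read 10.90, 10.84 and 9.51, then 11.11, 11.11 and 10.12, then 11.10, 10.36 and 10.53 in the same order of strains. At 24 h they read 9.34 and 8.23, then 9.27, 9.45 and 8.33, then 9.34, 9.49 and 9.04. The 3 times did not overlap over all arrays: the lowest at 4 h lay just above the highest at 24 h. The mean rise was 8.90-fold at 4 h (log2 difference 3.15, SE 0.21, limma adjusted p = 1.7e-10) and 2.96-fold at 24 h (1.56, SE 0.22, adjusted p = 2.5e-06). The fall from 4 h to 24 h was 3.01-fold (log2 difference -1.59, SE 0.22, adjusted p = 2.6e-06). Each of these passed in each strain as well, with a rise at 4 h of 3.10, 3.12 and 3.24 (SE 0.36 each) in C57BL/6, B6.Sle1b and Sle1b.BACSlamf6-H1. Of the 2 C57BL/6 arrays at 24 h, leaving out replicate 1 ended the call against unstimulated cells (adjusted p = 0.25), and leaving out replicate 2 ended the call against 4 h (0.18).

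Egr2, which with Egr3 is known for restraining T cell responses and for a part in NKT cell development, moved along the same course with a smaller size. Unstimulated arrays read 7.76, 7.20 and 7.27 in C57BL/6, 7.69, 8.34 and 7.46 for B6.Sle1b, and 7.82, 7.48 and 7.25 for Sle1b.BACSlamf6-H1. At 4 h the arrays read 8.95, 9.10 and 7.77, then 9.38, 9.28 and 8.27, then 9.38, 8.43 and 8.51. At 24 h they read 8.45 and 7.34, then 8.41, 8.33 and 7.33, then 8.36, 8.40 and 8.22. Array 3 at 4 h was the low one in C57BL/6, where it stood just above the highest unstimulated array, and in B6.Sle1b, where the times overlapped. The mean difference at 4 h was 1.20 (SE 0.22, 2.30-fold, limma adjusted p = 3.2e-04), and at 24 h it was 0.50 (SE 0.23, adjusted p = 0.096). The 24 h level was below the 4 h level by 1.63-fold (-0.70, SE 0.23, adjusted p = 0.019), a call that ended without C57BL/6 24 h replicate 2 (0.12). Within strains the rise passed in Sle1b.BACSlamf6-H1 alone (1.26, SE 0.38, adjusted p = 0.037), beside 1.19 and 1.15 in C57BL/6 and B6.Sle1b (0.067 and 0.097); the strain difference in this rise is tested further on. The call ended without any of 5 arrays in turn (up to 0.13), and the other strains' rises became calls when any of 2 arrays (C57BL/6) or 1 array (B6.Sle1b) was left out. A second probe set of Egr2 gave 1.20 (SE 0.22) at 4 h and 0.49 (SE 0.23) at 24 h.

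Egr3 was dim, though above background in all groups. Its arrays lay between 3.52 and 4.43, with group means from 3.84 to 4.26, and the times overlapped. The mean difference was 0.08 at 4 h (95% interval -0.13 to 0.29, limma adjusted p = 0.70) and 0.05 at 24 h (-0.17 to 0.27, adjusted p = 0.75). A change of the size seen for Egr1 or Egr2 at 4 h lies outside the first interval, for the signal of this probe set. Within C57BL/6, B6.Sle1b and Sle1b.BACSlamf6-H1 the difference at 4 h was -0.09, -0.09 and 0.42. None of these was called (limma adjusted p = 0.94, 0.95 and 0.15), and the 95% interval in Sle1b.BACSlamf6-H1 was 0.05 to 0.79. Egr3 had no second probe set here. Whether so dim a probe set would follow a change in its transcript was not tested.

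Nr4a1, the orphan receptor Nur77 that is linked to tolerance and to death of strongly stimulated T cells, was already bright in unstimulated cells. Unstimulated arrays read 10.90, 10.01 and 10.31 in C57BL/6, 10.32, 11.24 and 10.15 for B6.Sle1b, and 10.73, 10.57 and 10.40 for Sle1b.BACSlamf6-H1. At 4 h they read 11.29, 11.33 and 10.28, then 11.47, 11.69 and 10.59, then 11.43, 10.73 and 10.87, which overlapped the unstimulated arrays in each strain. At 24 h they read 9.32 and 8.25, then 9.46, 9.59 and 8.57, then 9.47, 9.45 and 8.65, below every earlier array. The difference at 4 h was 0.56 (SE 0.22, 95% interval 0.10 to 1.02, limma adjusted p = 0.087), and leaving out B6.Sle1b unstimulated replicate 2 or replicate 3 of either C57BL/6 or B6.Sle1b at 4 h made it a call, as low as 0.036. It was also a call with array brightness as a covariate (0.70, adjusted p = 0.0026). With array weights it was a call as well (0.79, adjusted p = 0.0032), but that fit ended without converging. With the replicate number as a block it passed too, as given in the section on processing. At 24 h it was 2.74-fold below unstimulated cells (-1.46, SE 0.23, adjusted p = 1.4e-05) and 4.04-fold below 4 h (-2.02, SE 0.23, adjusted p = 1.8e-07). The fall against unstimulated cells passed in each strain, at -1.62, -1.37 and -1.38 (SE 0.43, 0.38 and 0.38, adjusted p = 0.0060, 0.0083 and 0.0075). Each of these rests on few arrays: it ended without C57BL/6 24 h replicate 2 (0.18), without B6.Sle1b unstimulated replicate 2 or 24 h replicate 3 (up to 0.071), and without Sle1b.BACSlamf6-H1 24 h replicate 3 (0.057).

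The 3 FOS family genes were highest in unstimulated cells and lowest at 24 h. FOS proteins carry a leucine zipper, do not pair with themselves and need a JUN partner to bind DNA. Fos read 8.81, 7.96 and 8.31 in unstimulated C57BL/6 cells, 8.72, 9.47 and 8.70 in B6.Sle1b, and 8.78, 8.59 and 8.51 in Sle1b.BACSlamf6-H1. At 4 h it read 8.18, 7.93 and 7.40, then 8.52, 8.74 and 8.39, then 8.60, 7.77 and 8.03. At 24 h it read 5.72 and 4.83, then 5.65, 5.81 and 5.16, then 5.80, 5.80 and 5.52. The 24 h arrays lay far below all others, whereas 4 h and unstimulated arrays overlapped in each strain. The fall to 24 h was 8.85-fold (-3.15, SE 0.16, limma adjusted p = 4.3e-13), and the difference at 4 h was -0.48 (SE 0.16, 1.39-fold, adjusted p = 0.038). The latter call is marginal: it ended without 11 of the 26 arrays, left out 1 at a time (up to 0.094), with arrays centred on their median, with array weights and with the technical arrays added.

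Fosb, whose transcript also encodes the shorter deltaFosB, already lay well below its unstimulated level at 4 h. Unstimulated arrays read 5.98, 4.30 and 5.61 in C57BL/6, 5.12, 6.46 and 4.97 for B6.Sle1b, and 5.83, 5.48 and 5.59 for Sle1b.BACSlamf6-H1. At 4 h they read 3.75, 3.32 and 3.15, then 3.71, 4.31 and 3.82, then 4.07, 3.05 and 3.22, lower than the unstimulated arrays in every strain. At 24 h all 8 arrays lay between 2.33 and 2.67, at background in all strains. The difference at 4 h was -1.88 (SE 0.21, 3.69-fold, limma adjusted p = 4.8e-07), and at 24 h it was at least 5.90-fold, a bound set by background (measured log2 difference -2.95, adjusted p = 1.3e-10). From 4 h to 24 h it fell at least 1.60-fold (measured -1.06, SE 0.22, adjusted p = 3.6e-04). At 4 h the fall passed in each strain, at -1.89, -1.58 and -2.18 (SE 0.36 each), and the call in B6.Sle1b ended without its unstimulated replicate 2 (0.071).

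Fosl2, the FOS-related antigen FRA2, which is known for restraining alternative T helper fates in Th17 cells, made the largest change of the set. Unstimulated arrays read 10.57, 9.44 and 10.14 in C57BL/6, 10.30, 10.52 and 9.62 for B6.Sle1b, and 10.27, 10.24 and 10.08 for Sle1b.BACSlamf6-H1. At 4 h they read 9.77, 9.18 and 8.37, then 9.88, 9.90 and 9.14, then 9.58, 8.83 and 9.09. At 24 h they read 6.20 and 5.36, then 6.79, 6.19 and 5.61, then 6.66, 6.10 and 6.98. The 24 h arrays lay below all others, and only in Sle1b.BACSlamf6-H1 did the 4 h arrays all lie below the unstimulated ones. The difference was -0.83 at 4 h (SE 0.21, 1.77-fold, limma adjusted p = 0.0075) and -3.94 at 24 h (SE 0.22, 15.4-fold, adjusted p = 1.6e-12). A second, dimmer probe set of Fosl2 gave -0.58 (SE 0.12) and -1.32 (SE 0.12), so the direction was shared and the size at 24 h was not.

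The JUN genes parted. Jun can pair with itself or with FOS and is activated by JNK. Its arrays read 6.25, 4.76 and 6.20 in unstimulated C57BL/6 cells, 5.90, 6.56 and 5.30 in B6.Sle1b, and 6.30, 6.05 and 5.79 in Sle1b.BACSlamf6-H1. At 4 h it read 7.19, 6.59 and 7.01, then 7.03, 7.05 and 6.89, then 6.87, 6.25 and 7.01. At 24 h it read 6.76 and 6.75, then 6.32, 6.54 and 6.50, then 6.78, 6.72 and 6.93. The activated arrays lay together and mostly above the unstimulated ones, of which C57BL/6 replicate 2 was the lowest. Jun rose 1.97-fold at 4 h (0.98, SE 0.18, limma adjusted p = 3.3e-04) and was 1.71-fold above unstimulated cells at 24 h (0.77, SE 0.19, adjusted p = 0.0017), with no call between 4 h and 24 h (-0.21, 95% interval -0.60 to 0.18). A second probe set gave 0.76 (SE 0.15) and 0.65 (SE 0.16). Single strains carried the rise less firmly: at 4 h it passed in C57BL/6 (1.20, adjusted p = 0.019) and B6.Sle1b (1.07, adjusted p = 0.045). The first ended without C57BL/6 unstimulated replicate 2, 4 h replicate 1 or 4 h replicate 3 (up to 0.11) and on the second probe set (0.079), and the other without 20 of the 26 arrays in turn (up to 0.20).

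Junb, which pairs with FOS and BATF proteins and takes part in Th2 and Th17 gene expression, fell in steps. Unstimulated arrays read 8.59, 7.33 and 8.10 in C57BL/6, 8.39, 8.49 and 7.86 for B6.Sle1b, and 8.08, 8.24 and 8.0 for Sle1b.BACSlamf6-H1. At 4 h they read 7.45, 7.17 and 6.71, then 7.49, 7.50 and 7.10, then 7.22, 6.63 and 7.10. At 24 h they read 6.48 and 6.18, then 6.75, 6.40 and 6.35, then 6.83, 6.45 and 6.81. Unstimulated and 4 h arrays overlapped in C57BL/6, through its unstimulated replicate 2, and in no other strain. The difference was -0.97 at 4 h (SE 0.15, 1.96-fold, limma adjusted p = 3.3e-05), -1.61 at 24 h (SE 0.15, 3.05-fold, adjusted p = 7.8e-09) and -0.64 between them (SE 0.15, adjusted p = 0.0016). At 4 h it passed in each strain (-0.90, -0.88 and -1.13, SE 0.25 each), but in C57BL/6 the call ended without any of unstimulated replicates 1 and 3 and 4 h replicates 2 and 3 (up to 0.24), and in B6.Sle1b without 13 of the 26 arrays in turn (up to 0.19).

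Ier3 (IEX-1), a stress-inducible regulator of cell survival, was dim throughout. Unstimulated arrays read 2.58, 2.47 and 2.48 in C57BL/6, 2.78, 2.92 and 2.65 for B6.Sle1b, and 2.81, 2.34 and 2.73 for Sle1b.BACSlamf6-H1, at background in each strain. At 4 h they read 3.07, 3.13 and 3.09, then 3.14, 3.12 and 3.22, then 2.94, 2.62 and 3.11, the last group again at background. At 24 h they read 3.11 and 2.97 in C57BL/6, 3.49, 3.05 and 3.18 for B6.Sle1b, and 3.99, 3.13 and 4.60 for Sle1b.BACSlamf6-H1, where arrays 1 and 3 were the highest of all 26. The rise was at least 1.05-fold at 4 h (measured 0.41, SE 0.13, limma adjusted p = 0.033) and at least 1.34-fold at 24 h (measured 0.76, SE 0.14, adjusted p = 7.9e-05). The 4 h call ended without 8 of the 26 arrays in turn (up to 0.082), with quantile normalisation repeated and with arrays centred on their median. Among single strains the 24 h rise passed in Sle1b.BACSlamf6-H1 alone, at least 2.07-fold (measured 1.28, SE 0.23, adjusted p = 1.1e-04), beside measured differences of 0.53 and 0.46 in C57BL/6 and B6.Sle1b (0.16 and 0.15). With the technical arrays added the C57BL/6 difference was called too (0.011). That fit counts them as if they were further biological samples, which the labels do not bear out. Without Sle1b.BACSlamf6-H1 24 h replicate 2 the differences in C57BL/6 and B6.Sle1b were both called (0.030 and 0.034).

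**Figure D2:**
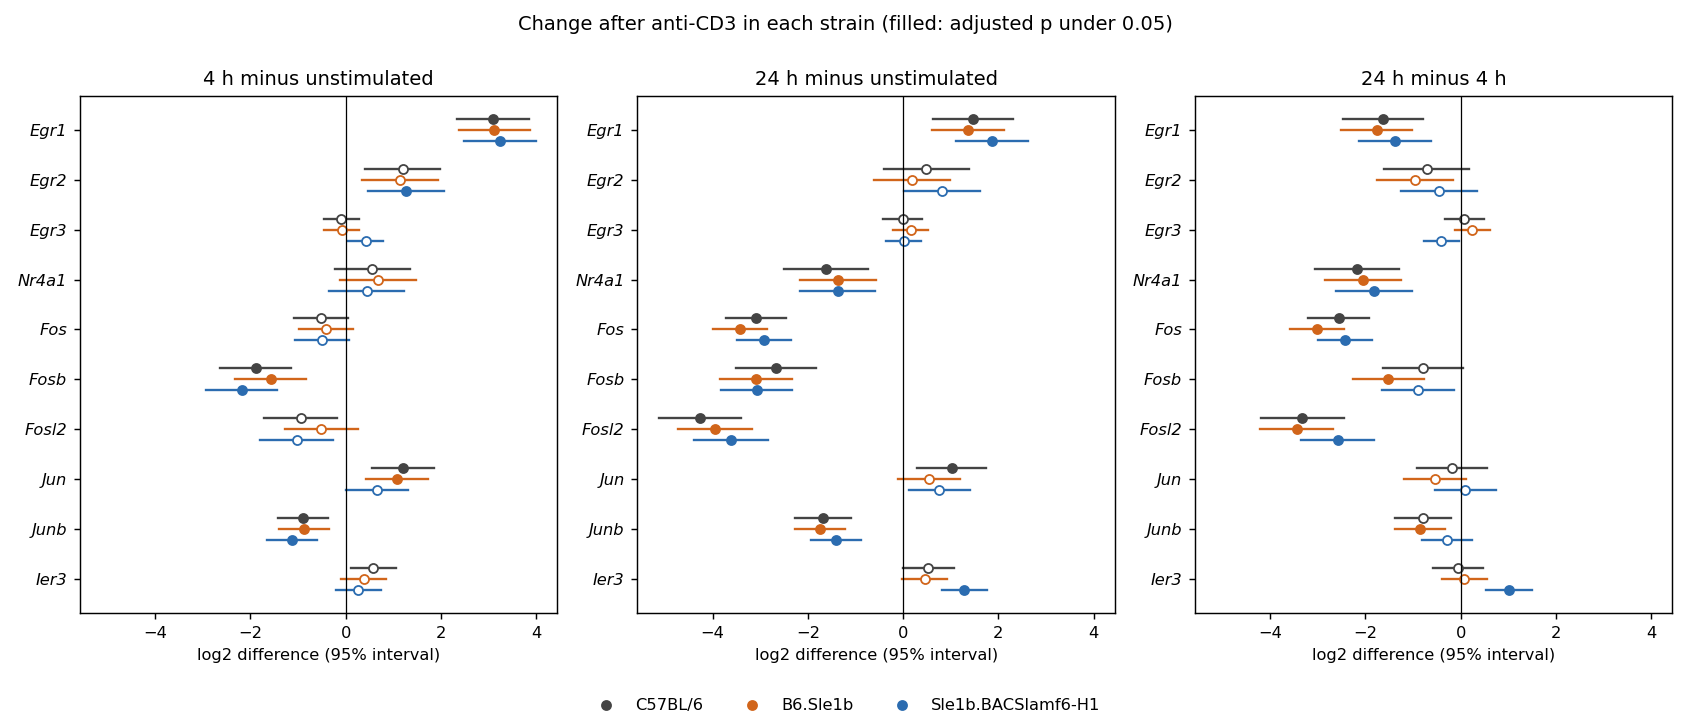
Log2 difference with its 95% interval for each gene and strain at 4 h against unstimulated cells, 24 h against unstimulated cells and 24 h against 4 h; filled circles have a limma adjusted p under 0.05. Egr1 stands near 3.1 at 4 h in all strains, Fosl2 between -4.26 and -3.62 at 24 h, and the 3 strains' intervals overlap for every gene in the first 2 panels.

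Counted within strains, 2 genes were called higher and 2 lower at 4 h in each strain, where 7.04%, 5.69% and 10.6% of all genes were called in C57BL/6, B6.Sle1b and Sle1b.BACSlamf6-H1. Of all genes 4.08%, 2.57% and 4.22% were called higher there, and 2.97%, 3.12% and 6.35% lower. Egr1 was the one called higher in each, joined by Jun in C57BL/6 and B6.Sle1b and by Egr2 in Sle1b.BACSlamf6-H1, and Fosb and Junb were called lower in each. At 24 h, 2, 1 and 2 genes were called higher, where 24.3%, 28.2% and 29.1% of all genes were called, 15.7%, 14.8% and 17.2% as higher and 8.60%, 13.4% and 11.9% as lower. The same 5 genes, Fos, Fosb, Fosl2, Junb and Nr4a1, were called lower in each strain, and Egr1 was called higher in each, beside Jun in C57BL/6 (1.02, SE 0.35) and Ier3 in Sle1b.BACSlamf6-H1. The Jun call ended without C57BL/6 unstimulated replicate 2 or either 24 h array (adjusted p up to 0.21). From 4 h to 24 h, 4, 6 and 4 genes fell, and Ier3 rose in Sle1b.BACSlamf6-H1 (at least 1.84-fold, measured 1.02, SE 0.23, limma adjusted p = 0.0015), where 18.6%, 24.2% and 24.8% of all genes were called, 12.0%, 13.1% and 16.9% as higher and 6.67%, 11.1% and 7.82% as lower. Egr1, Fos, Fosl2 and Nr4a1 fell in each strain, and Fosb and Junb were called in B6.Sle1b too. The Ier3 rise ended when only the groups compared entered the fit.

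**Figure D3:**
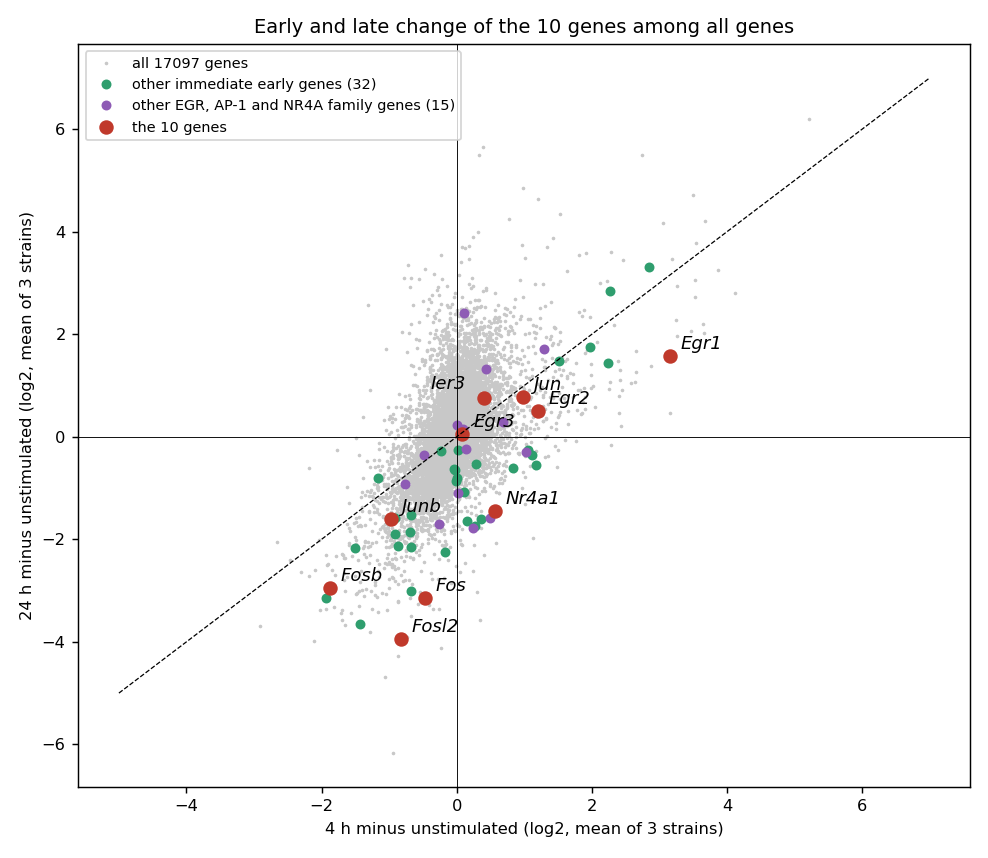
Mean log2 difference over the 3 strains at 4 h (horizontal) and 24 h (vertical) against unstimulated cells, for the 10 genes (red), 32 other immediate early genes (green), 15 other genes of the EGR, AP-1 and NR4A families (purple) and all genes (grey); the dashed line marks equal change. Egr1 lies to the right of the line at 3.15 and 1.56, Nr4a1 at 0.56 and -1.46, and Fosl2, Fos and Fosb in the lower left.

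The gene lists that follow were tested in the same way over the mean of the 3 strains, so their counts stand beside the shares of all genes given above: 8.15% higher and 10.1% lower at 4 h, and 22.9% and 17.4% at 24 h. Genes of the same families were read from a list of 15, all measured. At 4 h, 4 were called higher and 2 lower, and at 24 h 3 were higher and 6 lower, with list medians of 0.10 and -0.25 against 0.02 and 0.06 over all genes. Batf, an AP-1 factor that pairs with JUN and cooperates with IRF4, rose by 1.29 (SE 0.11) at 4 h and 1.70 (SE 0.11) at 24 h. Atf3, a stress-inducible factor, rose by 1.02 (SE 0.20) at 4 h, and Fosl1 (FRA1) by 0.43 (SE 0.13). Batf3 was higher at 24 h by 2.40 (SE 0.13), whereas the small MAF factor Maff fell by 1.70 (SE 0.12) and the EGR corepressor Nab1 fell by 1.09 (SE 0.07). Fosl1 was higher by 1.31 (SE 0.13) at 24 h. AP-1 genes above the unstimulated level at 24 h thus included Jun, Batf, Batf3 and Fosl1, and those below it Fos, Fosb, Fosl2, Junb and Maff.

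Of 34 other immediate early genes 32 were measured, with 9 called higher and 11 lower at 4 h, 5 higher and 23 lower at 24 h, and 2 higher and 25 lower from 4 h to 24 h. The list median was -0.01 at 4 h, -0.84 at 24 h and -0.92 between them, against 0.02, 0.06 and 0.02 over all genes. Irf4 rose by 1.98 (SE 0.12) and Myc, the growth regulator, by 2.26 (SE 0.14) at 4 h, and Myc was still 2.84 (SE 0.15) above at 24 h. Dusp1, a phosphatase that switches off MAP kinases, fell by 1.43 (SE 0.12) at 4 h and by 3.65 (SE 0.12) at 24 h. Klf4, a quiescence factor, fell by 1.93 (SE 0.14) and 3.15 (SE 0.15). Tnfaip3, the NF-kappaB inhibitor A20, fell by 3.01 (SE 0.08) at 24 h, and Klf6 fell by 2.15 (SE 0.08).

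Upstream, 6 of 9 listed genes for serum response factor and its partners were measured. Srf itself rose by 0.77 (SE 0.18) at 4 h and 1.18 (SE 0.19) at 24 h, and Creb1 by 0.37 (SE 0.11) at 4 h. Crebbp, a coactivator of CREB, fell by 0.61 (SE 0.20) and 1.48 (SE 0.21), and the ETS partner Elk4 by 1.01 (SE 0.12) at 24 h. In all 2 were higher and 1 lower at 4 h, and 1 was higher and 3 lower at 24 h. Of 23 genes of the ERK, JNK and p38 cascade 15 were measured, with 3 higher and 4 lower at 4 h and 4 higher and 8 lower at 24 h, where the share of all genes called higher was 22.9%. Rasgrp1, which loads RAS after receptor signalling, rose by 1.31 (SE 0.09) at 4 h, Map2k1 (MEK1) by 0.50 (SE 0.09), and Braf fell by 0.86 (SE 0.14) and 1.86 (SE 0.14).

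Downstream, of 12 cytokine and surface genes with known NFAT and AP-1 sites 8 were called higher and 1 lower at 4 h, and 9 higher and 1 lower at 24 h, with list medians of 1.22 and 1.81. Il4 was 3.64 (SE 0.16) above unstimulated cells at 4 h and Csf2 3.55 (SE 0.17). At 24 h Il2ra, the high-affinity receptor chain for IL-2, was 3.61 (SE 0.16), Csf2 3.79 (SE 0.18), Ifng 3.24 (SE 0.18) and Il2 3.59 (SE 0.22) above, while Fasl fell by 2.38 (SE 0.15). Of 14 genes linked to EGR2 and EGR3, 3 were higher and 5 lower at 4 h, and 5 higher and 7 lower at 24 h, where 18.2% and 40.4% of all genes were called. Sema7a rose by 3.86 (SE 0.18) at 4 h and Tnfrsf9 (4-1BB) by 1.11 (SE 0.10), and Crtam by 3.70 (SE 0.20) at 24 h. Tob1, an antiproliferative factor, fell by 1.07 (SE 0.10) and 2.56 (SE 0.10), so genes of that list moved in both directions, as did the 10 genes.

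Likeness between courses was measured as Pearson's r over the 9 group means, which share the arrays and the time course of activation, and it is given as a description. Among the 45 pairs of the 10 genes, 6 had r above 0.9 and 24 had r below 0. The highest were Fos with Fosl2 (0.992), Fosb with Junb (0.985) and Egr1 with Egr2 (0.974), and the lowest was Fosb with Ier3 (-0.77). Among 4118 other genes whose group means spanned at least 1 log2 unit, Oas2 was closest to Egr1 (0.994) and to Egr2 (0.969). Nr4a1 was closest to its family members Nr4a2 (0.993) and Nr4a3 (0.983). Fos was closest to the heat shock gene Hspa1b (0.995), Fosb and Junb to Ifrd1 (0.997 and 0.994), and Fosl2 to Dgat1 (0.999), which makes triglycerides. Jun was closest to Rnf19b (0.985) and Ier3 to Ptgs2 (0.934), which encodes the prostaglandin enzyme COX-2. For Egr3 the closest gene, Bhmt, reached 0.65.

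Between strains none of the 10 genes was called by limma at any time or over the mean of the 3 times. For B6.Sle1b against C57BL/6, 0.123%, 0.0409%, 0.0409% and 0.333% of all genes were called in unstimulated cells, at 4 h, at 24 h and over the mean. For Sle1b.BACSlamf6-H1 against B6.Sle1b these shares were 0.0819%, 0%, 0% and 0.0819%, and against C57BL/6 0.0585%, 0.0643%, 0.0351% and 0.228%. The 3 strain pairs share arrays, and so few genes passed anywhere that 0 of 10 is near the background. At single times 4 of the 90 tests had an unadjusted p under 0.05, and the smallest adjusted p was 0.78. Over the mean of the times 1 of the 30 tests had an unadjusted p under 0.05, that of Fos. In B6.Sle1b, 9, 9 and 8 of the 10 genes lay above C57BL/6 in unstimulated cells, at 4 h and at 24 h, with medians of 0.23, 0.33 and 0.18 on the log2 scale, against 0.02, -0.02 and -0.02 over all genes. In Sle1b.BACSlamf6-H1, 3, 1 and 8 of the 10 lay above B6.Sle1b, with medians of -0.15, -0.28 and 0.24. Over all genes these medians were -0.04, -0.02 and 0.01. Against C57BL/6, 9, 7 and 8 of the 10 lay above, with medians of 0.13, 0.05 and 0.42, beside -0.02, -0.04 and -0.01 over all genes. The 10 genes varied together on single arrays, as described further on, so such tallies are not 10 separate results.

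Fos had the smallest unadjusted p of the comparison with B6.Sle1b. Its means in unstimulated cells, at 4 h and at 24 h were 8.36, 7.84 and 5.27 in C57BL/6 and 8.96, 8.55 and 5.54 in B6.Sle1b. The difference over the mean of the times was 0.53 (95% interval 0.19 to 0.87, limma adjusted p = 0.45). At 4 h, where it was 0.71, the 3 B6.Sle1b arrays all lay above the C57BL/6 arrays. It passed when array brightness was a covariate, with 1 of 10 genes called, and in no other setting.

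Ier3 at 24 h read highest on arrays 1 and 3 of Sle1b.BACSlamf6-H1, but no strain difference was called. The difference of this strain was 0.87 against C57BL/6 (95% interval 0.34 to 1.40) and 0.67 against B6.Sle1b (0.20 to 1.14). The limma p was 0.0027 and 0.0079 unadjusted, and 0.99993 and 0.90 adjusted. Leaving out Sle1b.BACSlamf6-H1 24 h replicate 2, the lowest array of its group at 3.13, raised the group mean. The Ier3 difference was then called against C57BL/6 (adjusted p = 0.0099) and against B6.Sle1b (0.039). Each array was left out in turn and this setting is named for its outcome, so these calls are not a separate result. The 2 technical arrays of C57BL/6 at 24 h read 3.25 and 3.63 for Ier3, both above every tested C57BL/6 array. The neutrophil list, which averaged 3.45 in C57BL/6, 4.41 for B6.Sle1b and 4.22 for Sle1b.BACSlamf6-H1 at 24 h, also differed between strains, and its part in the Ier3 values was not tested.

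Whether activation itself differed between strains was tested as the strain difference in the change from unstimulated cells, for the 3 strain pairs at 4 h and 24 h. Of the 60 tests of the 10 genes none was called, 2 had an unadjusted p under 0.05, both of Ier3 at 24 h, and the smallest limma adjusted p was 0.77. Over all genes 0% were called in 5 of these 6 comparisons and 0.00585% in the response at 24 h of Sle1b.BACSlamf6-H1 against B6.Sle1b. The 95% intervals held 0 in 58 of 60 tests, and reached a median of 1.02 log2 units to either side. These intervals are not adjusted for the number of genes tested, whereas a call is. Strain differences in response well above 2-fold could therefore go uncalled here. For Egr1 at 4 h the response of B6.Sle1b differed from that of C57BL/6 by 0.03 (-1.04 to 1.09). The intervals that left out 0 were those of Ier3 at 24 h for Sle1b.BACSlamf6-H1 against either strain; its unstimulated arrays lay at background in every strain, so no size is given for them. In the change from 4 h to 24 h, compared after the Ier3 values had been seen, none of the 10 genes was called either, where 0% of all genes were called in each of the 3 pairs and 3 of 30 tests had an unadjusted p under 0.05. Of these 3 tests 2 were of Ier3, whose Sle1b.BACSlamf6-H1 arrays averaged at background at 4 h, so no size is given. The other was of Egr3, for Sle1b.BACSlamf6-H1 against B6.Sle1b (-0.66, SE 0.25).

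**Figure D4:**
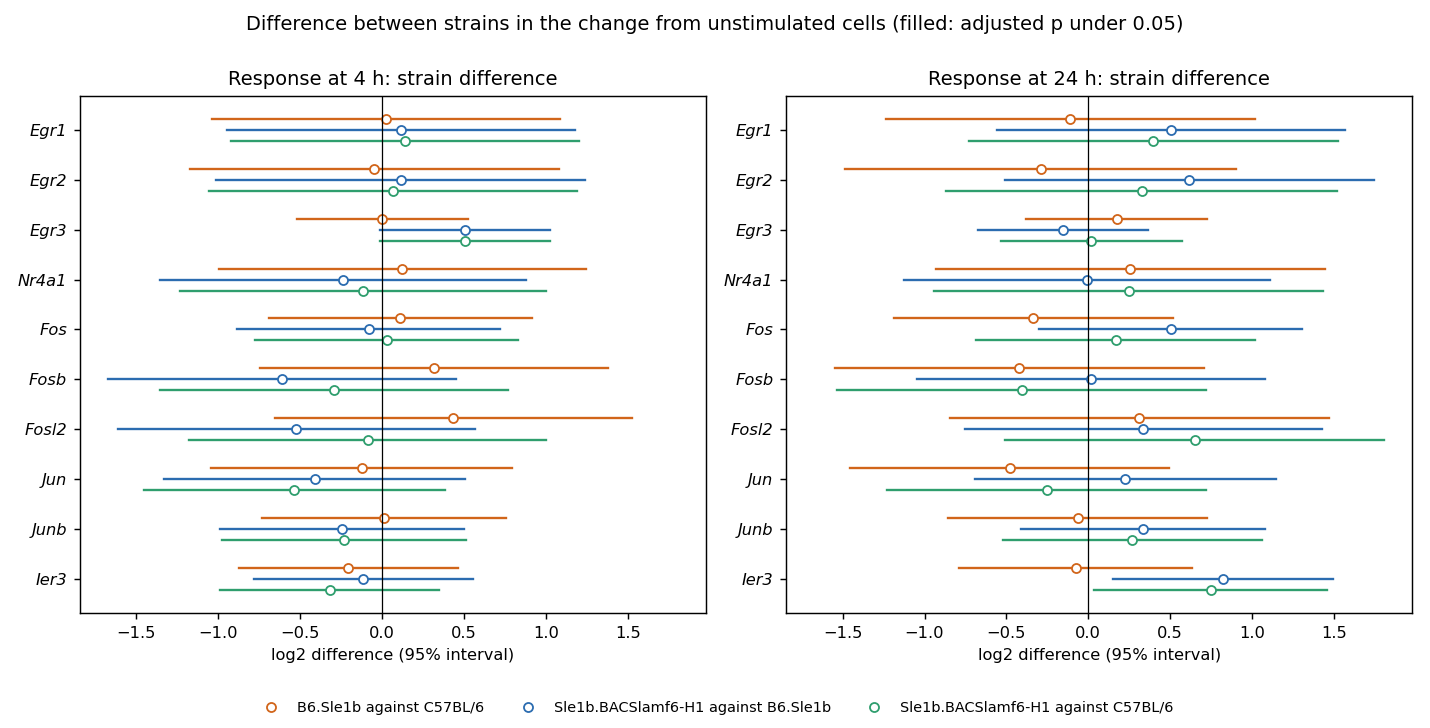
Difference between strains in the log2 change from unstimulated cells, with 95% intervals, at 4 h (left) and 24 h (right), for the 3 strain pairs; no circle is filled, as no adjusted p was under 0.05. All intervals cross 0 but those of Ier3 at 24 h for Sle1b.BACSlamf6-H1 against either strain, which rest on unstimulated values at background.

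The genes also varied together within groups, along with array brightness, which here means the 75th percentile of intensity alone. The 3 arrays lowest by that measure had the highest median intensities of all arrays (10.50, 10.48 and 10.38). An array called dim here was thus not lower throughout. On the dimmest array of 6 of the 9 groups, by the 75th percentile of intensity, only 1 of the 10 genes lay above its group mean, and on the dimmest of another 2 groups 2 did. These arrays include replicate 3 of C57BL/6 and of B6.Sle1b at 4 h, where Egr1, Egr2 and Nr4a1 read lowest, and C57BL/6 unstimulated replicate 2, where Fosb, Jun and Junb did. In Sle1b.BACSlamf6-H1 at 24 h, 6 of the 10 genes lay above the mean on the dimmest array. With 2 arrays in C57BL/6 at 24 h, a gene low on the dimmer array is high on the other by construction. The share of all genes below their group mean on the dimmest arrays was not counted, so the pattern may not be particular to the 10 genes. Without the 3 dimmest arrays of all, none of the calls given above for the mean of the 3 strains ended, and Jun was called lower at 24 h than at 4 h (-0.28, adjusted p = 0.029). The part of brightness in the values was not tested otherwise than by the settings named here.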

How the data were processed

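The authors deposited 1 table of intensity values on a linear scale. Per the submitters' processing notes they come from RMA (no version is named). RMA corrects background, quantile normalizes arrays and summarises probes, which can compress small differences and low values. The deposited arrays still differed in their 75th percentile of intensity (34.2 to 53.3) and in their median (9.06 to 10.5). The reason was not tested. Log2 was taken, with no filter and no pseudocount. Of the probe sets, 28898 have 1 symbol, 551 several and 15692 none; 28689 of the first matched the RefSeq table (GRCm38.p6), which served for symbols. Each gene is its brightest probe set.

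One model of 9 group means over the 26 biological arrays was fitted with limma 3.58.1 in R 4.3.3 (17 residual degrees of freedom, eBayes), with Benjamini-Hochberg adjustment over all genes of each of 33 contrasts. The method was tested on simulated data. Where a group mean was at or under background, the fold is a lower bound: the dim arrays entered at their own value or at background, whichever was higher. No 2 arrays were identical. Array number limits the precision. Replicate numbers were not taken as pairing: deviations of same-numbered arrays correlated between -0.81 and 0.82, mean 0.07 (0.20 for those of the same strain and number, -0.03 for different numbers).

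The members and the gene lists were chosen with earlier results of these data known. All 10 members are named; of a list, up to 4 called genes with the smallest adjusted p per comparison, of which the text leaves some out; of likenesses, the closest of the 3 per gene. Alternatives were other normalizations, covariates, probe sets, array sets and leaving out each array.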

Additional observations from a re-analysis of the deposited data

How the results depend on the processing

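No called difference changed direction under any of the alternatives. The count of the 10 genes called at 4 h against unstimulated cells was 4 in C57BL/6, and it was 2 with arrays centred on their median, 2 with only the groups compared in the fit and 8 with array weights, a fit that ended without converging. In B6.Sle1b the same count was 4, and it was 2 with arrays centred and 1 with only the groups compared, and leaving out single arrays gave 2 to 4. Between strains the count was 0, with 1 for B6.Sle1b against C57BL/6 over the mean of the times with brightness as a covariate (Fos), 1 for the response of B6.Sle1b against C57BL/6 at 4 h with array weights (Fosb), and 0 to 1 at 24 h for Sle1b.BACSlamf6-H1 against B6.Sle1b and against C57BL/6 when single arrays were left out (Ier3). The causes were not tested. Each fit can call more or fewer of all genes, and those shares are not given here. These counts and those below thus describe the fits and are not a result about the 10 genes. The other counts stayed within 1.5 times. With the replicate block as a fixed or a random term, over the mean of the strains 9 and 9 members passed at 4 h, 9 and 8 at 24 h, and 8 and 8 between both times, against 8, 8 and 7 without it (Nr4a1 joined at 4 h, adjusted p = 0.020 and 0.038, Egr2 at 24 h with the fixed term, 0.046, and Ier3 between the times, 0.027 and 0.026); 12 of 26 arrays correlated best with their own number. Signal at background limits Ier3 in unstimulated cells and Fosb at 24 h, where folds are bounds.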

Other observations

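Heat shock genes, which like Fos and Jun respond to stress and handling, moved in both directions. Of 11 listed genes 9 were measured, with 3 called higher and 1 lower at 4 h and 5 higher and 2 lower at 24 h by limma over the mean of the strains, where 8.15% and 10.1% of all genes were called higher and lower at 4 h and 22.9% and 17.4% at 24 h. Hspa1b, the inducible HSP70 closest to Fos in its course, fell by 0.74 (SE 0.17) at 4 h and by 3.91 (SE 0.17) at 24 h. Hsph1, its nucleotide exchange factor, was higher by 0.58 (SE 0.12) and 1.93 (SE 0.12), Hspe1 by 1.36 (SE 0.12) at 24 h and the constitutive Hspa8 by 0.66 (SE 0.05).

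The 2 technical arrays of C57BL/6 at 24 h read 9.36 and 8.22 for Egr1, beside 9.34 and 8.23 on the tested arrays. For Nr4a1 they read 9.29 and 8.08, beside 9.32 and 8.25. For Ier3 they read 3.25 and 3.63, beside 3.11 and 2.97. The labels do not say which RNA each technical array repeats, and the likeness of these values was not tested.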
